A study of Homo sapiens with 6 samples.

Results

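BIRC3 and 9 other genes of the NF-kB system were described in DU145 and 769-P cells after knockdown of SPOP, the substrate adaptor of a CUL3 ubiquitin ligase. The 10 genes were BIRC3, BIRC2, TNFAIP3, NFKBIA, NFKB1, NFKB2, RELA, RELB, TRAF1 and IKBKE, taken by symbol from 24551 genes. They were selected with the knockdown changes of these libraries known, so their changes after knockdown are given as a description with no test. Averaged over the 6 libraries all 10 reached 1 FPKM, as did 11865 genes in all, and each was listed once. FPKM, fragments per kilobase of transcript mapped and scaled to a fixed library size, is a level corrected for transcript length.

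DU145 is an established prostate carcinoma line grown from a brain metastasis, and 769-P is an established line from a renal cell adenocarcinoma. In each line 1 library came from cells given the control siRNA (NC), 1 from cells given SPOP siRNA 1 and 1 from cells given SPOP siRNA 2, so all 6 libraries came from transfected cells and no library from untransfected cells. The labels name no other treatment and no time after transfection. Each line stood for 1 tumor, each control had no replicate, and both siRNAs of a line were set against the same control. The labels do not say whether the 2 siRNA libraries of a line came from separate cultures. With 1 library each, the controls added nothing to the spread used in the tests. All SEs and p-values therefore rest on the difference between 2 siRNAs of unlike sequence within a line, and not on replicates of 1 treatment.

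The level of SPOP was 16.1 FPKM in the DU145 control, 2.77 after siRNA 1 and 2.96 after siRNA 2. In 769-P it was 11.6 FPKM in the control, 1.53 with siRNA 1 and 1.39 with siRNA 2. The target was thus reduced to between 12.0% and 18.4% of the control in the 4 knockdown libraries. No read counts are given, so the absolute depth is unknown. Relative to the 769-P control, the depth was 1.17 in the DU145 control and 0.693 and 0.683 in the DU145 siRNA libraries. In the 769-P siRNA libraries it was 1.06 and 1.41. The part of depth in the changes was not tested. A pair of libraries stood apart in their low values. Of 366 olfactory receptor genes, which are normally used by sensory neurons, 287 were above 0 in the DU145 control and 237 in 769-P siRNA 2, against 3 to 5 in the other libraries. The mean level of these genes was 0.345 FPKM in the DU145 control and 0.227 FPKM in 769-P siRNA 2. Keratins KRT8 and KRT18 were high in both lines, but the other epithelial markers were far lower in 769-P than in DU145. KRT19 was at 384 to 462 FPKM in DU145 and 0 to 3.56 FPKM in 769-P. For EPCAM the levels were 27.6 to 36.2 and 2.95 to 4.92 FPKM, and for CDH1 8.87 to 17.7 and 0 to 0.0977 FPKM. PAX8, a renal transcription factor, was at 106 to 125 FPKM in 769-P and 1.10 to 1.47 FPKM in DU145. Of the prostate luminal markers, KLK3 was at most 0.312 FPKM and TMPRSS2 was listed at 0 in every library. CA9, a marker of clear cell renal carcinoma, was listed at 0 in all 769-P libraries. Of 9 leukocyte markers only CD68 reached a mean of 1 FPKM, the pan-leukocyte gene PTPRC was at most 0.0347 FPKM, and CD3D was listed at 0 in all 6 libraries. The summed leukocyte list, nearly all of it CD68, was 22.8 FPKM in the DU145 control and 30.7 and 38.9 FPKM with the siRNAs, and 55.7 FPKM in the 769-P control and 63.8 and 76.3 FPKM with the siRNAs. Its part in the results was not tested.

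NF-kB is a family of dimeric transcription factors built from RELA, RELB, REL and the products of NFKB1 and NFKB2. In resting cells the dimers are held in the cytoplasm by inhibitors such as the NFKBIA protein, and kinases that answer cytokines and microbial products lead to destruction of the inhibitor and entry of the dimer into the nucleus. Many target genes encode brakes or amplifiers of the same pathway, among them NFKBIA, TNFAIP3, NFKB2, RELB, TRAF1 and BIRC3, and their transcripts are widely read as feedback genes in epithelial and immune cells.

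The promoters are shown because kappa B elements, the DNA sequences that NF-kB dimers bind, are the best known feature of these genes. RefSeq promoter windows (table on GRCh38.p14) ran from 250 bases before to 50 bases after a transcript start, and a window was present for 9 of the 10 genes. RELB is named only. Each window was placed on GRCh37 by an exact match of its sequence. The stretches of BIRC3, BIRC2, TNFAIP3 and NFKBIA end at the base before the annotated gene start and are written 5′ to 3′ on the strand of the gene, with matches to the 10-base kappa B consensus in capitals on either strand. They lie at chr11:102187965-102188214 (plus strand) for BIRC3, chr11:102217695-102217941 (plus strand) for BIRC2, chr6:138188146-138188350 (plus strand) for TNFAIP3 and chr14:35873956-35874205 (minus strand) for NFKBIA.
BIRC3: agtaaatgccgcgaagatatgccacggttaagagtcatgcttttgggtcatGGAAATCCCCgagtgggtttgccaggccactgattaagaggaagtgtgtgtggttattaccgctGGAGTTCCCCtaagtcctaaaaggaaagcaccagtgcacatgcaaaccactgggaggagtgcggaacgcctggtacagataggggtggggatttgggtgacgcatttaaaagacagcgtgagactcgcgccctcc
BIRC2: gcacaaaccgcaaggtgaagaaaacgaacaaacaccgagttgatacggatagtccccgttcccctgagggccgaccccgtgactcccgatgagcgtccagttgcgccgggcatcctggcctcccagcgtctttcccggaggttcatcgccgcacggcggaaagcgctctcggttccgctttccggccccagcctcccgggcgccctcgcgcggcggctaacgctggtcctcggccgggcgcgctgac
TNFAIP3: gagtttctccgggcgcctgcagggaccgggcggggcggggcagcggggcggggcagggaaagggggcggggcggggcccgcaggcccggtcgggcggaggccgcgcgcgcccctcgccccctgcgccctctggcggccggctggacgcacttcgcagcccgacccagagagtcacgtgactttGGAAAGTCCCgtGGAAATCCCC
NFKBIA: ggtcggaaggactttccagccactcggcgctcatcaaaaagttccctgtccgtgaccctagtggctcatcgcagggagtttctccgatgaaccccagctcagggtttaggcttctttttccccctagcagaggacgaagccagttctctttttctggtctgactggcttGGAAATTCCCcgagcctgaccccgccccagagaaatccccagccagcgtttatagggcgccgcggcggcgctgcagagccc

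With positions counted from the transcript start, BIRC3 held 2 matches, at -199 to -190 and at -135 to -126, and its neighbour and closest relative BIRC2 held none in either of its windows. TNFAIP3 held 2 matches, at -67 to -58 and at -55 to -46, and NFKBIA held 1, at -81 to -72. In NFKB1 and NFKB2 the matches are shown with their flanks. They lie on the plus strand at chr4:103422459-103422484 for NFKB1, at chr10:104154220-104154246 and chr10:104154249-104154274 before the second NFKB2 start, and at chr10:104155278-104155303 and chr10:104155433-104155458 before the third.
NFKB1: acgtcagtGGGAATTTCCagccagga
NFKB2: aacgtcatGGGAATTCCCCcctccggg
NFKB2: gccgagaaGGGGCTTTCCcggccctg
NFKB2: cccccaccGGGGCTTCCCggattctc
NFKB2: gtattttcGGGACTTTCCtaagctgc

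In the first NFKB2 stretch 3 matches overlapped on the 2 strands, so that its capitals run longer than the consensus. A match was found in 5 of the 9 genes with a window (BIRC3, TNFAIP3, NFKBIA, NFKB1 and NFKB2) and in 6 of their 16 windows. Among all RefSeq windows of the same length, 5.91% of 35116 held a match, as did 7.09% of 27305 genes. At least 2 matches were held by 1.26% of all windows. The windows of BIRC2, RELA, TRAF1 and IKBKE held none. A match describes letters in the sequence and is no measurement of binding.

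**Figure D1:**
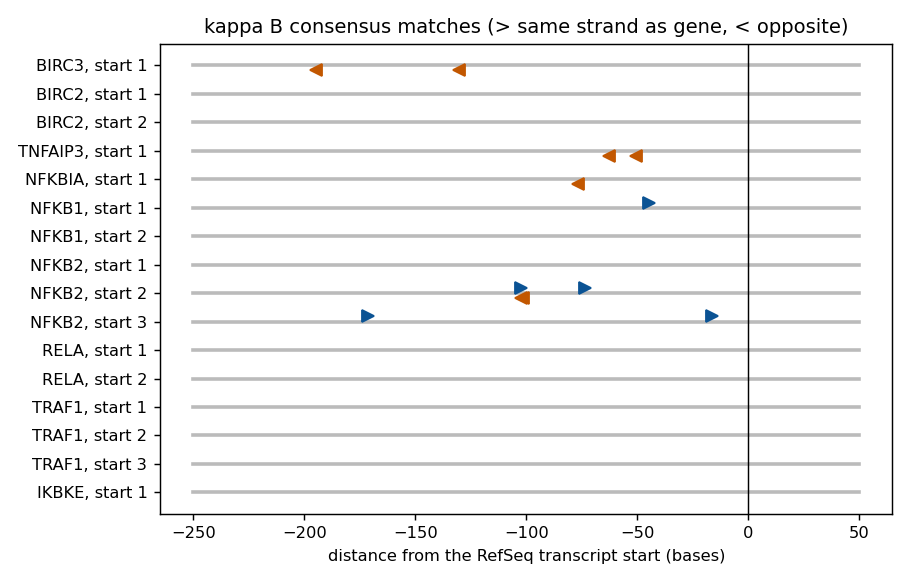
Matches to the kappa B consensus (triangles, pointing right on the strand of the gene and left on the other) in each RefSeq promoter window of 300 bases, drawn as a grey bar by distance in bases from the transcript start. The 16 windows belong to 9 genes, and the matches of BIRC3, TNFAIP3, NFKBIA, NFKB1 and NFKB2 all lie before the start.

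BIRC3 encodes cellular inhibitor of apoptosis 2, a RING ubiquitin ligase that acts with TRAF2 at tumor necrosis factor receptors and helps to keep the kinase MAP3K14 low. The gene lies on chromosome 11 at 102188215 to 102210134 (GRCh37, plus strand). In DU145 its level was 13.0 FPKM in the control, 3.47 under siRNA 1 and 3.78 under siRNA 2. In 769-P it was 27.8 FPKM in the control, 7.09 with siRNA 1 and 10.3 with siRNA 2. Both siRNA libraries lay below the control in each line, and the SD of the siRNA libraries was 2.25 FPKM around a mean of 8.67 in 769-P. The log2 changes, taken on log2(FPKM + 1) here and below, were -1.64 and -1.55 in DU145 and -1.83 and -1.35 in 769-P. Ranked by mean change from the largest fall, BIRC3 was number 28 of 11865 genes in DU145 and number 37 in 769-P. Ranked by the weakest of its 4 changes it was number 7. The means of the 2 lines, -1.60 and -1.59, differed by less than the gap between the siRNAs within either line. In bulk libraries, fewer cells with a transcript and less of it per cell cannot be told apart.

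**Figure D2:**
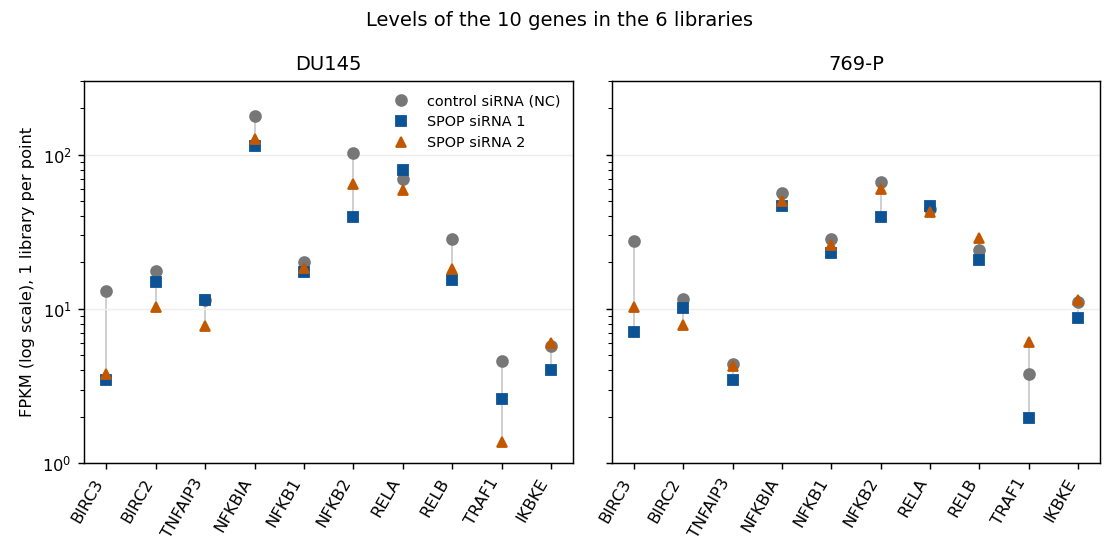
Levels of the 10 genes in FPKM (vertical log axis) in the 6 libraries, with the control siRNA in grey, SPOP siRNA 1 as blue squares and SPOP siRNA 2 as orange triangles; each point is 1 library and no error bar is drawn. The BIRC3 points of both siRNAs sit well below the control in DU145 and in 769-P, whereas the RELA points of the 3 libraries lie close together.

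BIRC2 encodes cellular inhibitor of apoptosis 1, the paralog of BIRC3, and lies at 102217942 to 102249401 on the same strand, 7808 bases beyond the end of BIRC3. How reads shared by related genes were assigned is not given in the sources used here. The level of BIRC2 was 17.7 FPKM in the DU145 control, 15.0 with siRNA 1 and 10.2 with siRNA 2, and 11.6, 10.2 and 7.90 FPKM in 769-P in the same order. All siRNA libraries were below their control, but BIRC2 did not pass 1.5-fold with both siRNAs, with log2 changes of -0.23 and -0.74 in DU145 and -0.16 and -0.50 in 769-P. BIRC3 made up 42.2% of the summed BIRC3 and BIRC2 levels in the DU145 control, and 18.9% and 27.0% with the siRNAs. In 769-P the share was 70.6% in the control, and 41.0% and 56.5% with the siRNAs. BIRC3 was therefore the less abundant of the pair in all 3 DU145 libraries, and the more abundant in the control and siRNA 2 libraries of 769-P.

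**Figure D3:**
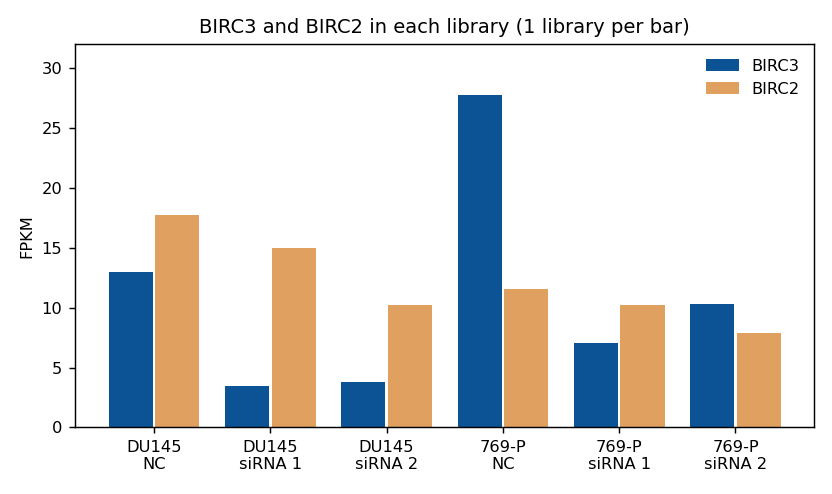
Level of BIRC3 (blue) and BIRC2 (light orange) in FPKM in each of the 6 libraries, 1 library per bar and no error bars. BIRC3 is the taller bar in 769-P NC and 769-P siRNA 2 and the shorter in the other 4 libraries.

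The genes on either side of the pair gave other values. YAP1, the transcriptional coactivator of the Hippo pathway, had log2 changes of 0.89 and 0.52 in DU145 and 0.81 and 0.29 in 769-P, all above 0. TMEM123, a membrane protein gene, had 0.31 and 0.30 in DU145 and 0.19 and -0.34 in 769-P. Thus BIRC3 and BIRC2 were below their controls in all 4 siRNA libraries, while YAP1 was above its control in the same 4. These neighbours were chosen by position after the values of BIRC3 were known.

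Among the inhibitors, NFKBIA encodes the classical inhibitor that retains RELA dimers in the cytoplasm and is itself a strong target gene. It lies on chromosome 14 at 35870285 to 35873955 (minus strand). Its level was 179 FPKM in the DU145 control, 114 under siRNA 1 and 125 under siRNA 2. In 769-P it was 56.2 FPKM in the control, 46.7 with siRNA 1 and 49.7 with siRNA 2. The siRNA libraries were below the control in both lines, by more in DU145 (log2 changes -0.64 and -0.51) than in 769-P (-0.26 and -0.17). Whether the lines differed in this was not tested, since the genes were chosen with this change known. The level of NFKBIA per unit of RELA was 2.58 in the DU145 control and 1.44 and 2.11 with the siRNAs, and 1.26 in the 769-P control and 1.01 and 1.16 with the siRNAs.

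TNFAIP3, also on the inhibitory side, encodes A20, a ubiquitin-editing enzyme that ends signalling from tumor necrosis factor and Toll-like receptors (chromosome 6, 138188351 to 138204451, plus strand). Its level in DU145 was 11.5 FPKM in the control, 11.5 under siRNA 1 and 7.80 under siRNA 2. In 769-P it was 4.39, 3.46 and 4.24 FPKM in the same order. The log2 changes were 0.00 and -0.50 in DU145 and -0.27 and -0.04 in 769-P, so the siRNA that gave the lower level was not the same in the 2 lines.

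Of the subunit genes, NFKB2 and RELB belong to the noncanonical arm of the pathway. NFKB2, whose precursor protein is processed to the partner of RELB, lies on chromosome 10 at 104153867 to 104162281 (plus strand). Its level was 102 FPKM in the DU145 control, 39.2 under siRNA 1 and 64.6 under siRNA 2. In 769-P it was 66.2 FPKM in the control, 39.2 with siRNA 1 and 60.3 with siRNA 2. The log2 changes were -1.36 and -0.65 in DU145 and -0.74 and -0.13 in 769-P. In both lines siRNA 1 gave the lower value, by 0.71 on the log2 scale in DU145 and 0.61 in 769-P. RELB, the partner subunit (chromosome 19, 45504719 to 45541450, plus strand), was at 28.6 FPKM in the DU145 control, 15.3 with siRNA 1 and 18.1 with siRNA 2, and at 23.9, 20.6 and 29.0 FPKM in 769-P. Its log2 changes were -0.86 and -0.64 in DU145, and in 769-P the siRNAs lay on both sides of the control at -0.21 and 0.27.

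NFKB1 encodes the usual partner of RELA (chromosome 4, 103422487 to 103538459, plus strand). Its level was 20.1 FPKM in the DU145 control, 17.3 with siRNA 1 and 18.3 with siRNA 2, and 28.5, 23.2 and 26.1 FPKM in 769-P. The 4 log2 changes were small and all below 0, between -0.29 and -0.12. RELA, the main activating subunit (chromosome 11, 65421070 to 65430561, minus strand), was at 69.3, 79.2 and 59.4 FPKM in DU145 and at 44.4, 46.3 and 42.8 FPKM in 769-P. In both lines its control lay between the siRNAs, with log2 changes of 0.19 and -0.22 in DU145 and 0.06 and -0.05 in 769-P. The level of NFKB2 per unit of NFKB1 was 5.07 in the DU145 control and 2.27 and 3.53 with the siRNAs, and 2.32 in the 769-P control and 1.69 and 2.31 with the siRNAs.

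The remaining genes act upstream. TRAF1 encodes an adaptor that binds TRAF2 and the inhibitors of apoptosis at receptors (chromosome 9, 123664671 to 123691451, minus strand). By the mean of the 3 libraries it was the least abundant of the 10 in both lines. It was at 4.57 FPKM in the DU145 control, 2.61 under siRNA 1 and 1.37 under siRNA 2. In 769-P it was 3.79 FPKM in the control, 1.97 with siRNA 1 and 6.09 with siRNA 2. The siRNAs moved it the same way in DU145 (log2 changes -0.62 and -1.23) and in opposite ways in 769-P (-0.69 and 0.57). IKBKE, a kinase related to the IkB kinases that also serves the interferon response (chromosome 1, 206643819 to 206670222, plus strand), was at 5.73, 4.01 and 5.98 FPKM in DU145 and at 11.0, 8.79 and 11.4 FPKM in 769-P. In both lines siRNA 1 was below the control (-0.42 and -0.30) and siRNA 2 close to it (0.05 and 0.04).

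**Figure D4:**
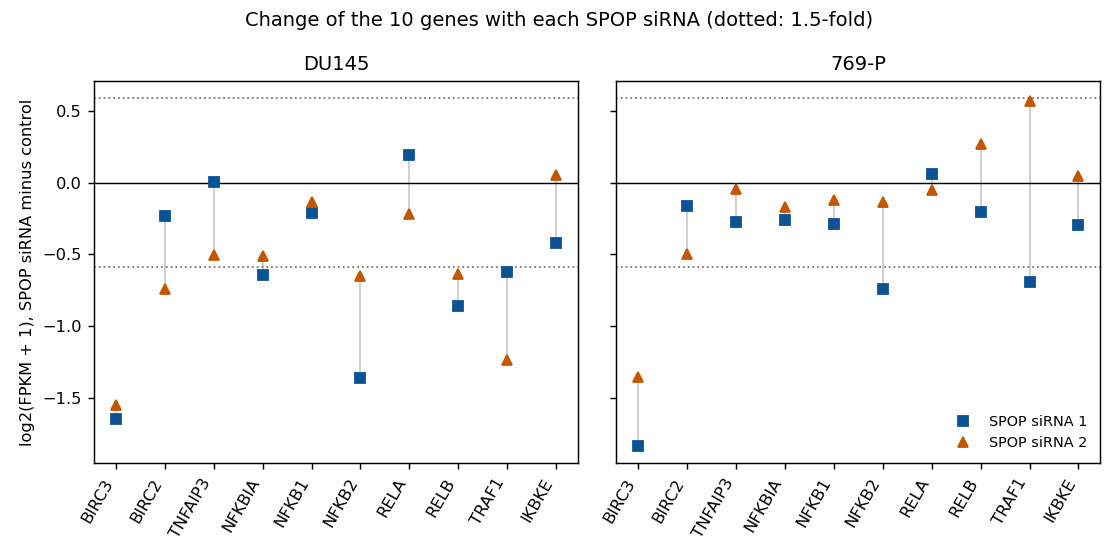
Change of each of the 10 genes, as log2(FPKM + 1) of the SPOP siRNA library minus that of the control of its line, with siRNA 1 as blue squares, siRNA 2 as orange triangles and dotted lines at 1.5-fold. Only BIRC3 lies below the lower dotted line with both siRNAs in both lines, and in 769-P the siRNAs put TRAF1 on opposite sides of 0.

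A gene was counted as fallen or risen in a line when it passed 1.5-fold (0.58 on the log2 scale) in 1 direction after each of the 2 siRNAs. In DU145, 4 of the 10 genes fell (BIRC3, NFKB2, RELB and TRAF1) and 0 rose, where 1.19% of the 11865 genes fell and 4.72% rose. In 769-P 1 of the 10 fell (BIRC3) and 0 rose, where 3.73% of all genes fell and 3.6% rose. BIRC3 was also the 1 member that fell in both lines, as did 0.27% of all genes. Since knockdown changes chose the 10 genes, these counts are a description. The weaker of the 2 changes in DU145 was -0.65 for NFKB2, -0.64 for RELB and -0.62 for TRAF1, just inside the limit, and -0.51 for NFKBIA, just outside it. With siRNA 1 alone 3 genes fell in 769-P (BIRC3, NFKB2 and TRAF1), where 9.84% of all genes fell. When the mean olfactory receptor value of each library was subtracted, 3 genes passed in DU145 and TRAF1 no longer did, with a change of -0.53 for siRNA 1. With changes centred on the median of all genes 5 genes passed in DU145, NFKBIA being the fifth.

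At 2-fold with both siRNAs, BIRC3 alone of the 10 fell in each line. Over both lines 9 genes fell by this measure (0.0759% of all genes), namely SPOP, BIRC3, the interferon-induced genes IFI6, IFIT3 and OAS3, and the small nucleolar RNAs SNORA10, SNORA57, SNORA71B and SNORD10. The median change of the 10 genes was -0.52 and -0.57 for siRNA 1 and siRNA 2 in DU145, and -0.28 and -0.09 in 769-P. Over all 11865 genes the corresponding medians were 0.07, 0.12, 0.00 and -0.06. Below 0 were 8 and 9 of the 10 genes in DU145 and 9 and 7 in 769-P. Of all genes 42.5% and 35.5% were below 0 in DU145, and 49.3% and 56.3% in 769-P.

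By the distance over the 4 changes (Euclidean, siRNA 1 and 2 in both lines, among 11864 other genes), the 5 genes nearest to BIRC3 were IFIT3, RBMS1, TMEM170A, OAS3 and CYP4F11. IFIT3, an interferon-induced protein with tetratricopeptide repeats, was at a distance of 0.463 with 7.07, 1.74 and 2.05 FPKM in DU145 and 20.4, 3.49 and 6.88 FPKM in 769-P. RBMS1, an RNA-binding protein gene, was at 0.677 with 12.1, 4.36 and 5.66 FPKM in DU145 and 25.8, 6.90 and 9.66 FPKM in 769-P. Both had, like BIRC3, their highest level in the 769-P control. The distances of TMEM170A, a membrane protein gene, OAS3, an antiviral oligoadenylate synthetase, and CYP4F11, a fatty acid hydroxylase, were 0.948, 0.973 and 1.06. The closest of the other 9 members was NFKB2 at 1.89, number 106 in the order, and RELA was the farthest at 3.22.

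The level of each gene was then compared between the lines, a contrast other than the knockdown change by which the genes were chosen. It takes in the same knockdown libraries, so it is not fully independent of that choice. With limma across all 11865 genes, on the mean of the control and knockdown groups of each line, 42.1% of genes differed at a Benjamini-Hochberg adjusted p under 0.05 (3175 higher and 1819 lower in DU145). After quantile normalization the split was 2603 higher and 2715 lower. Of the 10 genes 5 passed, a share close to that of all genes. NFKBIA was higher in DU145 by 1.47 on the log2 scale (SE 0.14, limma adjusted p = 0.00122), TNFAIP3 by 1.16 (SE 0.22, limma adjusted p = 0.0108) and RELA by 0.62 (SE 0.18, limma adjusted p = 0.0389). For these 3 genes all DU145 libraries lay above all 769-P libraries. BIRC3 was lower in DU145 by 1.04 (SE 0.21, limma adjusted p = 0.0123), although the 3 libraries of the lines overlapped, and IKBKE was lower by 0.87 (SE 0.23, limma adjusted p = 0.0289) without overlap.

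The other 5 genes did not pass this test. NFKB1 was 0.46 lower in DU145 (SE 0.15, limma adjusted p = 0.0606) with no overlap of the libraries. The differences were 0.50 for BIRC2 (SE 0.22, limma adjusted p = 0.129), 0.33 for NFKB2 (SE 0.28, limma adjusted p = 0.383), -0.14 for RELB (SE 0.20, limma adjusted p = 0.603) and -0.22 for TRAF1 (SE 0.40, limma adjusted p = 0.696). The libraries of the lines overlapped for these 4. Of the 5 calls NFKBIA alone held when any single siRNA library was left out. The call of BIRC3 was lost without either DU145 siRNA library or without 769-P siRNA 2 (adjusted p 0.0572 to 0.0629), that of TNFAIP3 without either 769-P siRNA library (0.0637 and 0.0750), that of IKBKE without any single siRNA library (0.0529 to 0.127) and that of RELA without DU145 siRNA 1 or either 769-P siRNA library (0.0673 to 0.138). The sign for TRAF1 turned to 0.10 without 769-P siRNA 2. In a fit with a replicate block for the siRNA number, BIRC2 (limma adjusted p = 0.0377) and NFKB1 (limma adjusted p = 0.0381) also passed.

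In DU145 the order of the mean levels was NFKBIA, RELA, NFKB2, RELB, NFKB1, BIRC2, TNFAIP3, BIRC3, IKBKE and TRAF1. The ranges of neighbours in this order were apart only between NFKBIA and RELA and between NFKB2 and RELB, and overlapped for the other 7 pairs. In 769-P the order was NFKB2, NFKBIA, RELA, NFKB1, RELB, BIRC3, IKBKE, BIRC2, TNFAIP3 and TRAF1. There the ranges were apart between NFKBIA and RELA, between RELA and NFKB1 and between BIRC2 and TNFAIP3, and overlapped for the other 6 pairs. In both lines NFKBIA, NFKB2 and RELA thus formed the abundant end and TRAF1 the low end.

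The rest of the pathway was followed through 108 genes on lists by function, of which 105 were listed and 80 had a mean of at least 1 FPKM. TNFRSF1B, TAB1 and NFKBIZ were not analysed here. TNF and LTB, the genes of cytokines that drive the pathway, lie in the major histocompatibility complex, where several genes are listed more than once, and were listed at 0. Of the 80 genes 4 rose and 6 fell in DU145, and 5 rose and 2 fell in 769-P, by 1.5-fold with both siRNAs. By the same measure 4.72% of all 11865 genes rose and 1.19% fell in DU145, and 3.6% rose and 3.73% fell in 769-P. When the mean olfactory receptor value of each library was subtracted, 4 pathway genes rose and 5 fell in DU145, and 5 rose and 3 fell in 769-P. The share of all genes is not given for that subtraction. The median mean change of the 80 genes was -0.05 in DU145 and -0.07 in 769-P, against 0.09 and -0.03 over all genes. Over the 10 genes, which were selected with their knockdown changes known, it was -0.53 and -0.18. By limma, 0 of the 80 passed an adjusted p of 0.05 in either line, and 10 in DU145 and 9 in 769-P had an unadjusted p under 0.05, as did 744 (6.27%) and 827 (6.97%) of all 11865 genes. Over all genes limma called 16 in DU145 and 12 in 769-P. The fold counts of the lists are therefore given as a description, and they moved with the siRNA. With siRNA 1 alone 14 genes fell and 8 rose in DU145, where 7.42% of all genes fell and 12.0% rose. In 769-P 12 fell and 11 rose, where 9.84% of all genes fell and 10.3% rose. With siRNA 2 alone 8 fell and 8 rose in DU145, where 3.73% of all genes fell and 11.3% rose. In 769-P 4 fell and 8 rose, where 8.37% of all genes fell and 6.15% rose.

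**Figure D5:**
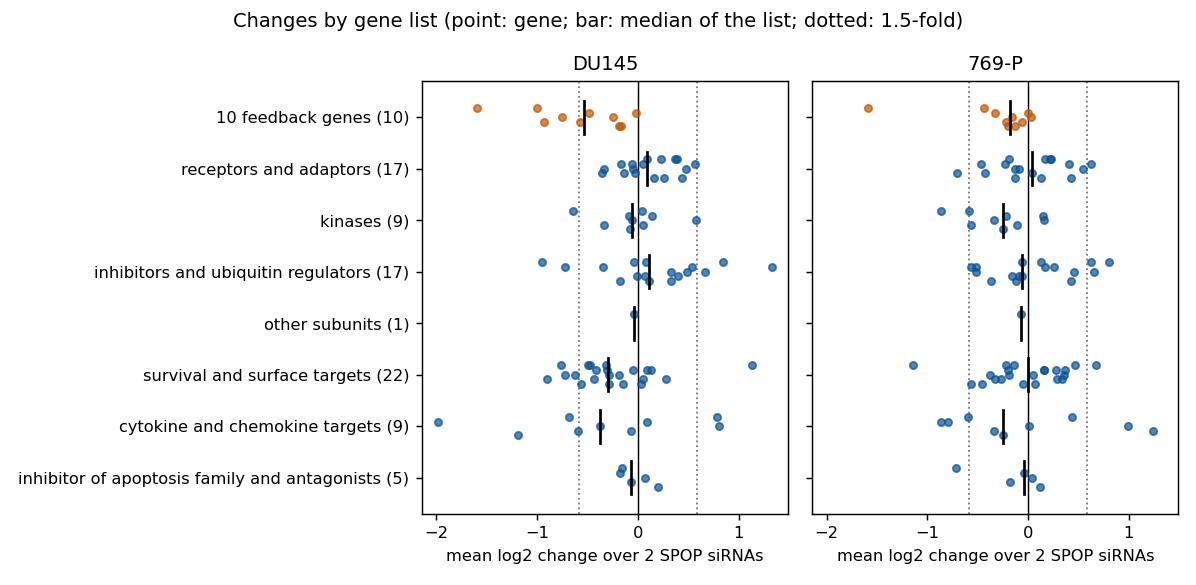
Mean log2 change over the 2 SPOP siRNAs for the 10 genes (orange, labelled feedback genes) and for the other pathway genes by list (blue). Each point is 1 gene, and a black bar marks the median of each list. The number of genes is in parentheses, and dotted lines lie at 1.5-fold. The median of the 10 genes, which were selected with their knockdown changes known, is -0.53 in DU145 and -0.18 in 769-P. BIRC3 is the leftmost orange point in both lines.

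Of 17 receptors and adaptors 1 passed, in 769-P alone: TRAF2, the ubiquitin ligase adaptor that carries BIRC2 and BIRC3 to receptors, rose from 27.6 FPKM to 42.2 and 44.3, while in DU145 it was at 31.2, 29.0 and 36.1 FPKM. Of 9 kinases 0 passed. MAP3K14, the kinase of the noncanonical arm, was at 34.8, 34.3 and 37.9 FPKM in DU145 and at 20.5, 15.7 and 22.8 FPKM in 769-P. The levels of IKBKG, the regulatory subunit of the IkB kinase complex, were 20.4, 29.5 and 32.5 FPKM in DU145 and 27.2, 29.9 and 30.9 FPKM in 769-P. REL, the remaining subunit gene, was low, at 0.862 to 2.09 FPKM over the 6 libraries.

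Of 17 inhibitors and ubiquitin regulators 2 rose and 1 fell in DU145, and 1 rose in 769-P. NFKBIE, an inhibitor related to NFKBIA, fell in DU145 from 38.7 FPKM to 24.2 and 22.0, and in 769-P it was at 17.5, 9.18 and 15.4 FPKM. NFKBID, a nuclear member of the inhibitor family, rose in DU145 from 2.49 FPKM to 4.40 and 4.66, and in 769-P it was at 4.20, 2.50 and 2.79 FPKM. The copper metabolism gene COMMD1, whose protein promotes turnover of RELA, rose in DU145 from 2.87 FPKM to 12.4 and 6.03. In 769-P COMMD1 was at 5.34 FPKM in the control, 8.16 with siRNA 1 and 4.56 with siRNA 2, on both sides of the control. PDLIM2, encoding another ligase for RELA, rose in 769-P from 6.17 FPKM to 13.3 and 10.0, and in DU145 it was at 83.9, 30.0 and 61.1 FPKM.

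Of 22 survival and surface targets 1 rose and 2 fell in DU145, and 1 rose and 1 fell in 769-P. IRF1, a transcription factor induced by both NF-kB and interferons, fell in both lines, from 12.4 FPKM to 7.11 and 6.67 in DU145 and from 15.8 FPKM to 6.85 and 6.33 in 769-P. SDC4, a cell surface proteoglycan, rose in both, from 46.5 FPKM to 122 and 88.0 in DU145 and from 28.3 FPKM to 47.3 and 44.4 in 769-P. The tetraspanin gene CD82 fell in DU145 from 20.9 FPKM to 11.6 and 13.0. IRF1 and SDC4 thus lay on opposite sides of their controls in all 4 siRNA libraries. Of 5 other members or antagonists of the inhibitor of apoptosis family 0 passed, and the most abundant were BIRC5, the mitotic survivin gene, at 28.0 to 49.7 FPKM and DIABLO, a mitochondrial antagonist, at 20.9 to 24.5 FPKM.

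Of 9 cytokine and chemokine targets 1 rose and 3 fell in DU145, and 2 rose and 1 fell in 769-P. IL32, a proinflammatory cytokine gene, fell in DU145 from 23.3 FPKM to 10.0 and 9.26, and in 769-P it was far higher at 380, 288 and 353 FPKM. CSF2, the gene of a myeloid growth factor, fell in DU145 from 8.50 FPKM to 0.480 and 2.93. In 769-P CSF2 was at 8.45 FPKM in the control, 2.52 with siRNA 1 and 7.37 with siRNA 2. CXCL3, a neutrophil chemokine gene, rose in both lines from low levels, from 0.362 FPKM to 1.53 and 1.25 in DU145 and from 0.428 FPKM to 1.60 and 2.11 in 769-P. Its relative CXCL2 fell in 769-P from 2.85 FPKM to 0.952 and 1.29. PTX3, a soluble pattern recognition protein gene, rose in 769-P from 9.24 FPKM to 26.8 and 20.0, and in DU145 both siRNA libraries list it at 0, with 0.510 FPKM in the control. PTX3 is 1 of the 3 genes counted as fallen in DU145, with a log2 change of -0.594 for each siRNA, just past the 1.5-fold limit. The mean olfactory receptor level of the DU145 control was 0.345 FPKM, so this fall rests on a value near that background.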

How the data were processed

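Poly(A) RNA from 6 siRNA-transfected cell line samples was sequenced, 1 library per sample. The authors trimmed and checked the reads (FastQC, cutadapt), mapped them with TopHat2 to hg19 with at most 2 mismatches, and deposited FPKM values per gene from Cufflinks; versions and annotation are not given in the sources used here. The library kit named in the labels is not the one named in the study's methods, and the methods state 2 biological replicates per sample, whereas each sample here is 1 library.

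Rows with the same symbol were summed (26006 rows, 24551 genes), and log2(FPKM + 1) was used throughout. Genes that averaged 1 FPKM or more were kept. Each siRNA library was set against its line's control, and a gene was counted where both siRNAs passed 1.5-fold. Limma 3.58.1 (R 4.3.3) was run on these values with 4 groups, 2 residual degrees of freedom and a trend on mean expression, with Benjamini-Hochberg adjustment at 0.05 over all genes kept; the script was tested on simulated data. Relative depths are the modal ratios of low values between libraries. Gene positions are those of the GENCODE annotation on GRCh37. The kappa B consensus was searched on both strands of RefSeq promoter windows, counting every match. Python 3.11.15, pandas 2.3.3 and matplotlib 3.10.9 were used.

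The 10 genes, the pathway and marker lists and the rules were chosen with earlier results of these data known. Named were all 10 genes, SPOP, each pathway gene kept that passed 1.5-fold with both siRNAs in a line (or the 2 most abundant of a list where none did), and the 5 genes nearest to BIRC3 in their changes. Alternatives were another pseudocount, other filters, centring, quantile normalization, a replicate block, no trend, a 2-fold limit, subtraction of the mean olfactory receptor value and leaving out each siRNA library. Some marker genes are not reported here.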

Additional observations from a re-analysis of the deposited data

Results flagged for a closer look

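For 9 of the 80 pathway genes both siRNA libraries of DU145 lay on one side of their control and both of 769-P on the other, as they did for 1636 of all 11865 genes (13.8%). Of these 9, NFKBID, PDLIM2, CXCL2 and PTX3 are among the genes described above, having also passed 1.5-fold with both siRNAs in at least 1 line, and BCL3, CSF1, JUNB, RIPK1 and TRAF6 are not. Subtracting the mean log2 change of 769-P from that of DU145 gave 1.18 for NFKBID (0.66 and -0.51), -1.76 for PDLIM2 (-0.95 and 0.81), 0.96 for CXCL2 (0.09 and -0.86) and -1.84 for PTX3 (-0.59 and 1.24). In the limma test of the difference over all genes the adjusted p was 0.999 for each of the 4, so none passed. Of the other 5, CSF1 had the largest difference, at 1.38 (limma adjusted p = 0.999). PTX3 was listed at 0 in both DU145 siRNA libraries and at 0.510 FPKM in the DU145 control, the library in which 287 of 366 olfactory receptor genes were above 0, so its value for DU145 rests on a level near that background. CXCL2 in DU145 lay above its control by 0.02 and 0.17 only.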

How the results depend on the processing

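With both siRNAs kept, 56 of 60 recomputed changes of the 10 genes stayed within 1 SD of the siRNA libraries, and no mean change turned its sign under another scaling. With 1 siRNA alone 7 of 40 turned their sign, for TNFAIP3 in DU145, RELB and TRAF1 in 769-P, and RELA and IKBKE in both lines. Falls in DU145 numbered 1 at 2-fold (4 at 1.5-fold), and falls in 769-P 1 to 3 with 1 siRNA alone, where 8.37% to 9.84% of all genes fell. Of the 80 pathway genes, 2 fell and 0 rose in DU145 and 1 fell and 1 rose in 769-P at 2-fold. With a mean of at least 5 FPKM 2 rose in DU145 and 1 fell in 769-P. With a pseudocount of 0.1, 7 fell in 769-P. The share of all genes in each line is not given for the 2-fold limit, this filter or this pseudocount. Whether these counts differ from that share is therefore unknown. With 1 siRNA alone 8 to 14 fell and 8 rose in DU145, and 4 to 12 fell and 8 to 11 rose in 769-P. Of all genes 3.73% to 7.42% fell and 11.3% to 12.0% rose in DU145 by the same measure. In 769-P 8.37% to 9.84% fell and 6.15% to 10.3% rose.

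Limma called 16 knockdown genes in DU145 and 12 in 769-P, against 1186 and 148 with no filter and 4 in DU145 at a mean of at least 5 FPKM. Leaving out 1 siRNA library gave 0 to 30 calls in DU145 and 0 to 7 in 769-P, where the lone sample of a group was assumed to vary like the others. Line differences numbered 3261 of all genes at a mean of at least 5 FPKM and 2763 to 3892 with 1 library left out. Among the 10 genes they numbered 1 (NFKBIA) with no filter and 1 to 3 with 1 library left out. TRAF1 turned from -0.22 to 0.0965 (limma adjusted p = 0.82) without 769-P siRNA 2 and was -0.53 without 769-P siRNA 1. RELA lost its call after quantile normalization (limma adjusted p = 0.0501), which gave NFKB1 one (0.0364). The cause of these shifts was not tested.

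The libraries share only a siRNA number, and the differences of siRNA 2 from siRNA 1 had r = 0.27 between the lines across 11865 genes. With a replicate block limma called 18 knockdown genes in DU145, 14 in 769-P and 5977 line differences, 7 of them among the 10 genes. Absolute depth is unknown, which leaves each value without a counting error.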
